A study of Bos taurus with 16 samples.

Results

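RNA of cumulus cells was compared with RNA of granulosa cells from follicles on the cattle (Bos taurus) ovary that bore the corpus luteum, called ipsilateral. The comparison takes every library that the labels describe as ipsilateral, 4 of cumulus cells and 4 of granulosa cells, which is 8 of the 16 libraries of the series. The other 8 hold the same cell types from the opposite, contralateral ovary and serve only for the comparison of the sides. Follicular fluid came from ovum pick-up, the aspiration of follicles in living animals, and cumulus-oocyte complexes were picked from it under a stereomicroscope. Each library is a pool of 3 animals, with 4 pools per group, and the labels name no breed, age or hormone treatment. They do not say how the granulosa cells were separated, nor whether the same animals gave material to pools of different groups. Nothing was therefore paired, and p values measure the spread between pools. Libraries are numbered 1 to 4 within a cell type in the order of their records, and the numbers tie no cumulus pool to a granulosa pool.

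Both cell types descend from one population of follicular cells. Cumulus cells sit against the oocyte, exchange small molecules with it through gap junctions, and expand in a hyaluronan matrix at ovulation. Mural granulosa cells rest on the basement membrane of the follicle wall, turn androgen from the theca into oestradiol under follicle-stimulating hormone, and become luteal cells after ovulation.

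Levels below are CPM, read counts relative to a library total of 1 M (M, mega), with totals scaled by TMM factors. Differences are log2 fold changes, cumulus minus granulosa, so a positive value is higher in cumulus, and each carries its standard error (SE). Adjusted p values come from edgeR's quasi-likelihood test with Benjamini-Hochberg adjustment over all entries tested, and the threshold for a call was 0.05. A value of CPM is not divided by gene length, so it compares libraries and not genes. In bulk pools, fewer cells of a type and less RNA per cell cannot be told apart.

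Library totals were 13.2 ± 2.54 M counts in cumulus and 17.5 ± 2.99 M in granulosa (SD, n = 4 each), a difference of -4.30 M that the spread between pools does not separate (exact permutation test, two-sided, p = 0.0857, adjusted over 2 tests p = 0.171; the smallest p this design allows is 0.0286). The number of entries at 1 CPM or more was 15184 ± 50.1 in cumulus and 15281 ± 192 in granulosa (exact permutation p = 0.371). A count of 0 in a library allows up to 0.137 to 0.283 CPM, a limit that covers counting error only. The granulosa pools differed more among themselves than the cumulus pools did. The median SD of log2 CPM was 0.359 in granulosa and 0.241 in cumulus, and the common biological coefficient of variation was 0.396 and 0.196. The first principal component held 72.9% of the variance, and on it granulosa libraries 2 and 4 scored 61.7 and 75.7 and granulosa libraries 1 and 3 scored 131 and 117, while the cumulus libraries lay between -106 and -82.4. Granulosa libraries 2 and 4 thus stood nearer to cumulus, and the list counts printed below are also given without them. No library was an exact or near copy of another, with a chi-square per gene of at least 12.9 in every pair of one type.

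**Figure D1:**
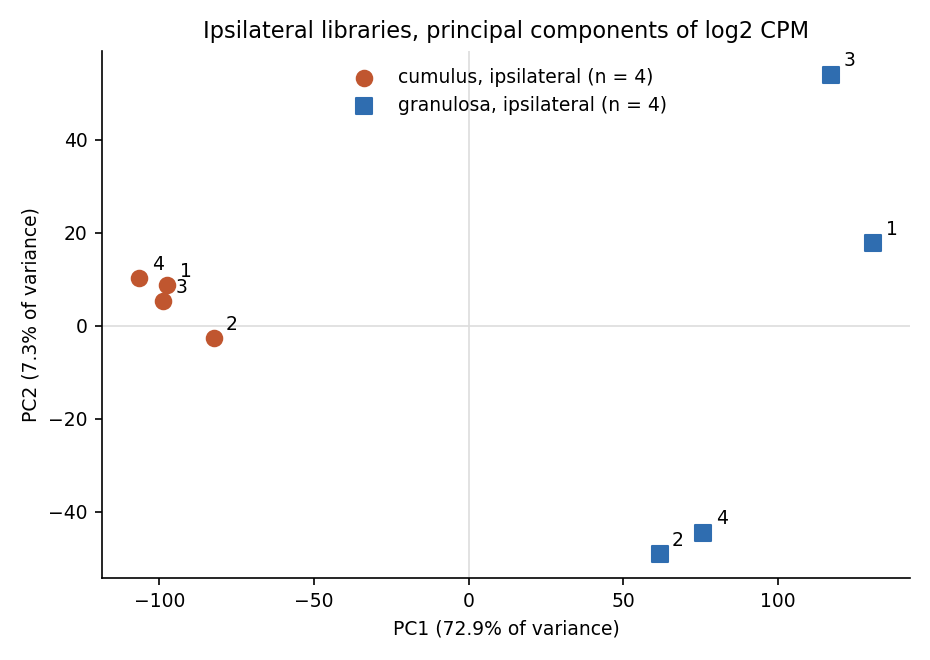
Scores of the 8 ipsilateral libraries on the first and second principal components of log2 CPM, one point per library, with the share of variance on each axis. The cumulus libraries group between -106 and -82.4 on the first axis, and granulosa libraries 2 and 4 lie nearer to them than granulosa libraries 1 and 3.

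The labelled identities could be checked only in part. Of 77 markers of granulosa, cumulus, theca, luteal, endothelial, blood, oocyte and surface epithelial cells, 4 were found by name, because most entries of the table carry only an Ensembl ID. None of the 12 granulosa or the 10 cumulus markers was among the 4, so the labels rest on the sampling. None of the 4 passed the filter on low counts. PF4, a platelet chemokine and 1 of 11 leukocyte markers, was at 0 in all cumulus libraries and at 1.38, 1.19, 0.452 and 1.09 CPM in the granulosa libraries. The summed level of the oocyte markers H1FOO and BCL2L10 was 0.670 to 1.38 CPM in cumulus and 0.0645 to 1.38 CPM in granulosa. MUC16, a membrane mucin of surface epithelia, was at 0 in all cumulus libraries and in granulosa libraries 2 and 4, and at 10.1 and 44.6 CPM in granulosa libraries 1 and 3. The part of such cells in the results was not tested, and counts are given below without granulosa libraries 1 and 3 as well.

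Cumulus and granulosa cells of this ovary differed at 7319 of 16525 entries tested (44.3%), with 3416 higher in cumulus (20.7%) and 3903 higher in granulosa (23.6%). At 2-fold or more, 2011 were higher in cumulus (12.2%) and 2226 in granulosa (13.5%). Differences of 8-fold or more were split unevenly, 288 higher in cumulus against 805 in granulosa. The 4 values of one type lay wholly above the 4 of the other at 7432 entries (45.0%), of which 3676 were higher in cumulus (22.2%) and 3756 in granulosa (22.7%). Without granulosa libraries 2 and 4 there were 3952 and 4221 calls, and the entries at 8-fold or more became 957 and 1167. Leaving out granulosa library 2 alone gave 524 and 922 at that size, and leaving out granulosa library 4 alone gave 453 and 866. Without granulosa libraries 1 and 3 the calls were 2827 and 3206, and 275 and 787 entries reached 8-fold. Among entries called and at least 2-fold higher in cumulus, granulosa library 2 held the highest granulosa value at 46.4% and library 4 at 36.6%. Among those higher in granulosa, library 2 held the lowest granulosa value at 50.0%.

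The share called rose with abundance. Of 943 entries with a mean under 1 CPM, 21.2% were called, with a median SE of 0.713. Of 7794 entries between 10 and 100 CPM, 47.9% were called, with a median SE of 0.186. Among the 80 entries at 1000 CPM or more, 70% were called, 29 higher in cumulus and 27 in granulosa, with a median SE of 0.142 against 0.120 for the 2128 entries between 100 and 1000 CPM, of which 61.6% were called. The 730 tested entries that have a gene name gave 156 calls higher in cumulus and 149 in granulosa (41.8%), and the paragraphs below describe these.

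**Figure D2:**
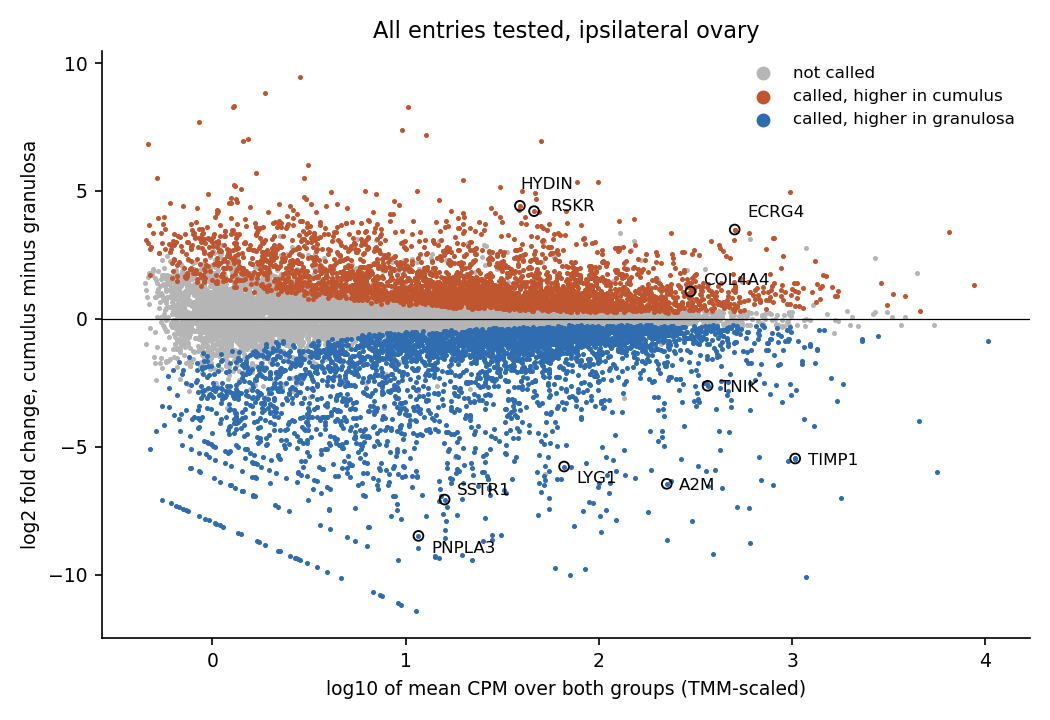
Log2 fold change (cumulus minus granulosa) of each of the 16525 entries tested against the log10 of its mean CPM, coloured by call. Calls lie on both sides, 3416 above and 3903 below 0, and the lowest line of points holds entries at 0 in all cumulus libraries, whose fitted value depends on the prior count.

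Genes higher in cumulus with the most reads include a tumour suppressor secreted as a peptide hormone, basement membrane and fibril-associated collagens, and neural adhesion proteins. C11H2orf40 (ECRG4), the gene of that secreted peptide, was at 1065, 1142, 781 and 714 CPM in the cumulus libraries and at 11.1, 100.3, 18.3 and 199 CPM in the granulosa libraries. Its groups did not overlap, and granulosa libraries 2 and 4 were the highest of their type (3.49 ± 0.91, adjusted p = 0.0162; 4.41 without granulosa library 4). EMB, which encodes embigin, a partner of monocarboxylate transporters, had 148, 132, 146 and 168 CPM in cumulus against 7.53, 15.2, 27.2 and 18.8 in granulosa. This was a 8.63-fold difference (3.11 ± 0.33, adjusted p = 8.32e-05), and every cumulus pool lay far above every granulosa pool. IL1RAPL2, an interleukin-1 receptor family member of synapses, read 84.5, 81.1, 65.6 and 132 CPM in cumulus and 1.77, 19.4, 2.90 and 19.7 in granulosa (3.04 ± 0.76, adjusted p = 0.0129). In granulosa, its values in libraries 2 and 4 were the higher ones.

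The remaining abundant genes higher in cumulus differed by about 2 to 3-fold, and none of their groups overlapped, which their choice required. FBXW12, an F-box protein, had a log2 fold change of 1.19 ± 0.25, adjusted p = 0.00356. ZSCAN21, a zinc-finger factor, had 1.37 ± 0.17, adjusted p = 1.92e-04. LOC506950 (MAP7D3), a microtubule-binding protein, had 1.08 ± 0.13, adjusted p = 1.61e-04. C23H6orf201, which overlaps ECI2, and TAZ had 1.39 ± 0.14 and 1.0047 ± 0.19, with adjusted p values of 5.06e-05 and 0.00179.

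Among named genes with a mean of at least 5 CPM in one type, the largest differences toward cumulus belonged to HYDIN, a giant protein of the central apparatus of motile cilia, and LOC527796 (RSKR), a kinase related to ribosomal S6 kinases. HYDIN was at 78.2, 58.9, 70.7 and 90.7 CPM in the cumulus pools and at 0.328, 3.56, 0.774 and 8.77 CPM in the granulosa pools. That is 21.4-fold (4.42 ± 0.81, adjusted p = 0.00290), with no overlap, and 5.58 on the log2 scale without granulosa library 4, its highest granulosa value. RSKR read 63.2, 79.9, 84.0 and 123 CPM in cumulus and 2.55, 5.53, 3.68 and 6.96 CPM in granulosa, 18.5-fold apart (4.21 ± 0.33, adjusted p = 1.46e-05). DLGAP2, a scaffold of the postsynaptic density, was low in both types, at 4.60, 5.6017, 5.03 and 5.91 CPM in cumulus and 0.262, 0.395, 0.194 and 0.588 in granulosa (3.82 ± 0.41, adjusted p = 7.57e-05). KLHL31, a kelch protein known from muscle, had 26.7, 31.7, 21.1 and 27.7 CPM in cumulus and 0.655, 4.35, 0.839 and 1.94 in granulosa (3.78 ± 0.52, adjusted p = 3.50e-04; 4.49 without granulosa library 2). The chromatin reader L3MBTL4 (entry LOC101904513) had 3.35 ± 0.50, adjusted p = 5.35e-04, with cumulus library 2 at 2.75 CPM below the other 3 cumulus values of 6.76 to 7.58. FAM217A had 3.07 ± 0.93, adjusted p = 0.0231, which was lost when cumulus library 1, 3 or 4 was left out, and 3.85 without granulosa library 4.

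Abundant genes higher in granulosa included inhibitors of extracellular proteases. TIMP1, a secreted inhibitor of matrix metalloproteinases, was at 47.3, 83.3, 38.9 and 14.9 CPM in cumulus and at 2302, 1607, 2783 and 1414 CPM in granulosa. All granulosa pools lay above all cumulus pools, 44.1-fold on the fitted scale (-5.46 ± 0.55, adjusted p = 1.34e-04). TIMP1 lies inside an intron of SYN1 in mammals, and without strand its reads cannot be told from those of unspliced SYN1 RNA. A2M, which encodes the broad protease inhibitor alpha-2-macroglobulin, had 1.70, 16.8, 1.41 and 1.16 CPM in cumulus and 433, 524, 544 and 272 in granulosa. Cumulus library 2 was the one cumulus pool above 2 CPM (-6.45 ± 0.99, adjusted p = 0.00149; -8.29 without that library). SYN3 had 60.9, 82.5, 57.9 and 65.001 CPM in cumulus and 544, 409, 438 and 420.4 CPM in granulosa (-2.77 ± 0.15, adjusted p = 3.86e-06). The SYN3 locus contains TIMP3, a further metalloproteinase inhibitor, so the source of these reads is uncertain. LYG1, a goose-type lysozyme, was at 3.07, 4.04, 0.805 and 1.83 CPM in cumulus and at 162, 98.0, 162 and 96.3 in granulosa (-5.78 ± 0.43, adjusted p = 1.50e-05), with no overlap.

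Signalling, metabolic and regulatory genes completed the abundant set higher in granulosa. TNIK, a kinase of the Wnt pathway, had 109, 117.91, 109.7 and 72.2 CPM in cumulus and 604, 609, 691 and 606 in granulosa (-2.62 ± 0.15, adjusted p = 4.64e-06), and its locus overlaps the entry TMSB4. ADNCR, a long noncoding RNA known from adipocyte differentiation, read 13.7, 11.4, 9.66 and 7.25 CPM in cumulus and 110.4, 95.7, 124 and 117 in granulosa (-3.42 ± 0.20, adjusted p = 3.86e-06), and overlaps PLXDC2. C8H9orf3 had -2.37 ± 0.13, adjusted p = 3.86e-06. ADSS, adenylosuccinate synthase of purine synthesis, had -1.67 ± 0.17, adjusted p = 5.23e-05. SLC25A24 (entry LOC534742), the mitochondrial carrier of ATP-Mg and phosphate, had -2.13 ± 0.21, adjusted p = 4.68e-05. MRPL14, a protein of the mitochondrial ribosome, had -1.26 ± 0.17, adjusted p = 2.42e-04, with TMEM63B overlapping it. TAF7, a subunit of the general transcription factor TFIID, had -1.03 ± 0.11, adjusted p = 8.25e-05. The groups of all 7 did not overlap, which their choice required.

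Several genes were counted in granulosa and hardly or not at all in cumulus. MARCH11, a membrane-bound ubiquitin ligase, had 1259 counts over the 4 granulosa libraries and 0 over the 4 cumulus libraries. Its granulosa levels were 26.6, 8.95, 17.9 and 19.9 CPM, at least 316-fold higher than the limit of 3 counts over the cumulus group. DMBT1, a scavenger receptor protein of mucosal epithelia, had 565 counts in granulosa and 0 in cumulus, at least 142-fold higher, with 8.97, 0.790, 8.97 and 12.5 CPM in granulosa libraries 1 to 4. LOC786474, an entry named PNPLA3, had 1540 counts in granulosa and 3 in cumulus, a ratio of 387 (95% exact counting interval 132 to 1878.5). The second entry of PNPLA3, a lipid droplet hydrolase, had -4.83 ± 0.45, adjusted p = 3.06e-05. SSTR1, a somatostatin receptor, read 0.0852, 0.643, 0.134 and 0.122 CPM in cumulus and 69.961, 14.3, 18.9 and 23.0 in granulosa (-7.07 ± 0.77, adjusted p = 1.02e-04; -7.99 without cumulus library 2 and -6.32 without granulosa library 1). FAM46A, a noncanonical poly(A) polymerase, stood at 1.70, 0.551, 0.537 and 0.0609 CPM in cumulus and 74.5, 25.9, 72.7 and 36.7 in granulosa (-6.27 ± 0.67, adjusted p = 1.15e-04; -7.14 without cumulus library 1). MXRA5, a matrix protein with leucine-rich repeats, had -5.84 ± 0.51, adjusted p = 2.28e-05 and -6.57 without cumulus library 1. FXYD3, a regulator of the sodium pump, had -5.78 ± 0.58, adjusted p = 4.93e-05 and -6.37 without cumulus library 3.

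**Figure D3:**
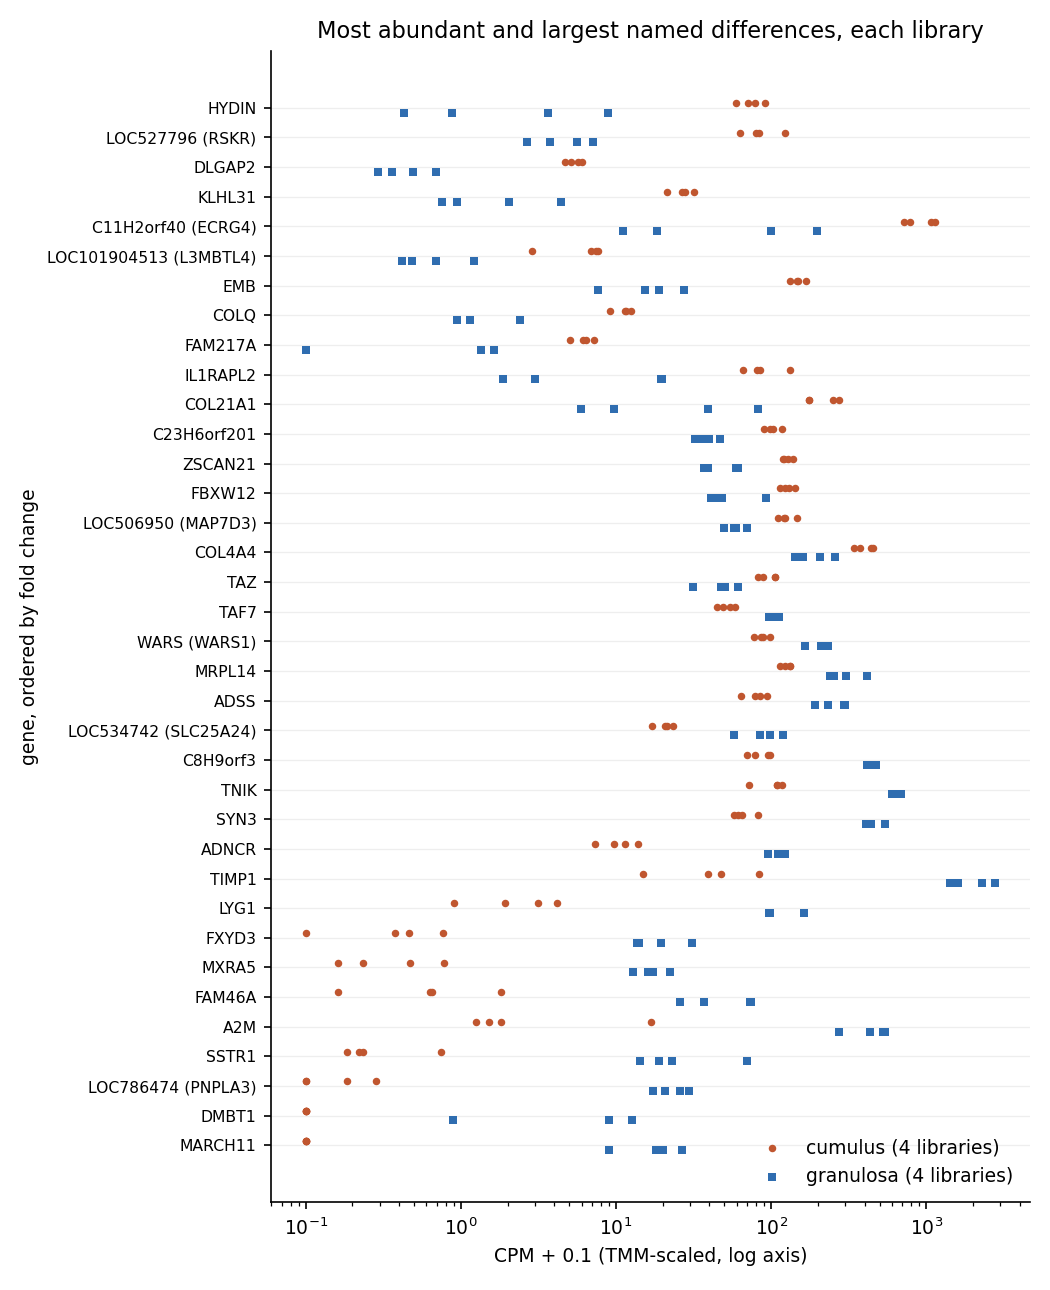
Level in each of the 8 libraries (CPM plus 0.1, log axis) of 36 named genes chosen among the 12 most abundant and the 10 largest differences in each direction, with cumulus and granulosa libraries as separate points. The 2 sets of points do not overlap for any of the 36 genes, which the choice of the genes requires.

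Among abundant genes that did not pass, the iron-sulfur assembly factors FAM96B (CIAO2B) and FAM96A (CIAO2A) lay at 129 ± 10.6 and 114.13 ± 9.20 CPM in cumulus and at 133 ± 28.1 and 118.12 ± 14.6 CPM in granulosa (SD, n = 4). Their log2 fold changes were -0.04 ± 0.15 and -0.05 ± 0.11. ATP5MPL, a small subunit of ATP synthase, had 0.03 ± 0.17 and SLC9C2, a sodium-proton exchanger, had 0.04 ± 0.13. All 4 were chosen as the smallest differences among named genes at 100 CPM or more.

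Genes of motile cilia were called in both directions, with the larger count toward cumulus. Motile cilia beat through dynein arms and a central apparatus, and many of their genes are also read in cells that carry only a primary cilium or a sperm tail. Of 35 genes found by name 25 passed the filter, and of these 10 were higher in cumulus, 3 in granulosa and 12 did not pass the test, against 20.7% and 23.6% of all entries, and the median was 0.74 against 0.01 over all entries. The split was 10 and 3 without granulosa libraries 2 and 4, and 8 and 3 without libraries 1 and 3. ARMC4 (ODAD2), a docking factor of outer dynein arms, was at 109, 68.8, 87.2 and 86.6 CPM in cumulus and at 10.7, 15.2, 16.3 and 26.0 in granulosa (2.36 ± 0.26, adjusted p = 8.46e-05). IQCA1, an ATPase of the dynein regulatory complex, had 32.5, 32.0, 17.7 and 17.4 CPM in cumulus and 1.11, 3.69, 4.45 and 3.53 in granulosa (2.95 ± 0.41, adjusted p = 3.31e-04). Neither gene overlapped between the types. LRRC6 (DNAAF11), a cytoplasmic assembly factor of dynein arms, had 1.59 ± 0.19, adjusted p = 1.36e-04, and CCDC189 (CFAP119) had 0.99 ± 0.12, adjusted p = 1.34e-04. MAATS1, of the radial spoke region, had 2.42 ± 0.40, adjusted p = 8.99e-04, and C13H20orf194 (DNAAF9) had 0.66 ± 0.16, adjusted p = 0.00721. The calls of CFAP47, C1H21orf2 (CFAP410) and SPAG1 were the remaining ones with HYDIN, and each of the 3 was lost when some single library was left out.

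The 3 ciliary genes that went the other way included the dynein light chain TCTE3 (DYNLT2). It was at 15.1, 4.96, 3.96 and 4.51 CPM in cumulus and at 76.9, 34.4, 83.4 and 84.9 in granulosa (-3.31 ± 0.49, adjusted p = 6.94e-04; -3.96 without cumulus library 1). CFAP221, of the central apparatus, had -2.37 ± 0.42, adjusted p = 0.00131, and WDR78, a dynein intermediate chain, had -0.55 ± 0.13, adjusted p = 0.00616. Genes of transport along cilia, the dynein-2 motor and the centriole gave 5 of 11 higher in cumulus and 0 higher in granulosa, against 20.7% and 23.6% of all entries, with a median of 0.32. Those 5 were CNTRL, a centriolar protein (0.95 ± 0.15, adjusted p = 7.34e-04), WDR60 (1.65 ± 0.36, adjusted p = 0.00411) and DYNC2H1 (0.68 ± 0.20, adjusted p = 0.0170) of dynein-2, IFT172 of the intraflagellar transport train (0.71 ± 0.16, adjusted p = 0.00520), and KIAA0556 (0.90 ± 0.22, adjusted p = 0.00772). The call of DYNC2H1 was lost without cumulus library 2 or 4. Leaving out granulosa libraries 2 and 4 gave 6 and 0, and leaving out libraries 1 and 3 gave 3 and 0.

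Collagens and the other matrix genes divided between the cell types. Collagens form the fibrils and sheets of the extracellular matrix, and type IV builds the basement membrane. Of 14 collagen genes found by name 9 were tested, and 5 were higher in cumulus, 1 in granulosa and 3 did not pass, against 20.7% and 23.6% of all entries, with a median of 1.36. These counts stayed 5 and 1 without granulosa libraries 2 and 4 and without libraries 1 and 3. COL4A4, a chain of type IV collagen, was at 454, 441, 344 and 373 CPM in cumulus and at 161, 206, 143 and 258 in granulosa (1.07 ± 0.18, adjusted p = 0.00109), and overlaps RHBDD1. COL21A1, a fibril-associated collagen, had 175, 175, 251 and 275 CPM in cumulus and 5.90, 82.7, 9.55 and 39.2 in granulosa (2.67 ± 0.79, adjusted p = 0.0278). Its groups were apart, but granulosa libraries 2 and 4 were the highest granulosa values, the call was lost without cumulus library 3, cumulus library 4 or granulosa library 4, and the value was 3.57 without granulosa library 2. COLQ, the collagen tail of acetylcholinesterase, had 3.09 ± 0.35, adjusted p = 9.80e-05. COL25A1, a transmembrane collagen, had 2.89 ± 0.43, adjusted p = 5.37e-04 and 3.49 without granulosa library 2. COL9A3, a chain of cartilage collagen IX, had 3.35 ± 0.93, adjusted p = 0.0146, was lost without cumulus library 1, and was 4.35 without granulosa library 1. COL24A1, a fibrillar collagen, was the one higher in granulosa, at 0.0852, 0.459, 0.470 and 1.71 CPM in cumulus and 15.4, 4.21, 11.9 and 20.5 CPM in granulosa (-4.17 ± 0.71, adjusted p = 0.00119; -5.21 without cumulus library 4).

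Noncollagenous matrix proteins and protease inhibitors, 9 tested of 16 found by name, gave 0 higher in cumulus and 6 higher in granulosa, against 20.7% and 23.6% of all entries, with a median of -1.24. The 6 were TIMP1, A2M and MXRA5, given above, with LAMA5, CYR61 and CTGF. Leaving out granulosa libraries 2 and 4, or 1 and 3, left 0 and 6. LAMA5, the laminin alpha chain of epithelial basement membranes, was at 1.79, 2.39, 2.75 and 1.0356 CPM in cumulus and at 15.3, 12.9, 13.034 and 15.2 in granulosa (-2.83 ± 0.31, adjusted p = 7.84e-05). LAMA2, the muscle laminin chain, did not pass (-0.07 ± 0.28). CYR61 (CCN1) and CTGF (CCN2) are secreted matricellular proteins, which YAP and TGF-beta are known to induce. CYR61 read 300.0, 285, 202 and 249 CPM in cumulus and 356, 469, 350.0 and 502 in granulosa (-0.69 ± 0.16, adjusted p = 0.00601). CTGF had 27.7, 26.0, 35.2 and 10.8 CPM in cumulus and 65.2, 46.5, 60.1 and 63.5 in granulosa (-1.24 ± 0.30, adjusted p = 0.00770). NOV (CCN3) and WISP3 of the same family had 2.25 ± 0.91 and 1.54 ± 0.60, with adjusted p values of 0.0676 and 0.0604.

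Septins are filament-forming GTP-binding proteins of the cell cortex. Of 13 genes found by name 11 were tested, and 0 were higher in cumulus, 5 were higher in granulosa and 6 did not pass, against 20.7% and 23.6% of all entries, with a median of -0.64. The counts were 1 and 5 without granulosa libraries 2 and 4, and 0 and 5 without libraries 1 and 3. SEPT9 was at 17.3, 13.9, 12.8 and 14.7 CPM in cumulus and at 99.4, 60.2, 83.9 and 73.4 in granulosa (-2.43 ± 0.18, adjusted p = 8.93e-06). SEPT6 read 12.010, 16.8, 8.52 and 12.001 CPM in cumulus and 72.1, 51.3, 79.8 and 65.2 in granulosa (-2.45 ± 0.22, adjusted p = 2.68e-05). The groups of both were apart. SEPT2 had -0.98 ± 0.09, adjusted p = 3.18e-05, SEPT7 had -0.64 ± 0.09, adjusted p = 4.59e-04 and SEPT5 had -1.41 ± 0.26, adjusted p = 0.00185. The other 6 had log2 fold changes between -0.93 (SEPT1) and 0.17 (SEPT4). Of 6 genes of actin regulation and trafficking, 3 were higher in granulosa and 0 in cumulus, against 23.6% and 20.7% of all entries, and either omission of 2 granulosa libraries left 3 and 0. FAM49A (CYRIA), a Rac1-binding brake on actin branching, had 19.1, 18.9, 15.9 and 12.2 CPM in cumulus and 99.7, 45.3, 62.1 and 60.3 in granulosa (-2.02 ± 0.25, adjusted p = 1.68e-04). The myosins MYO18A and MYO1H had -2.16 ± 0.42, adjusted p = 0.00217 and -1.45 ± 0.33, adjusted p = 0.00532.

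Cytoplasmic aminoacyl-tRNA synthetases, which charge transfer RNAs with amino acids, were 10 of 18 higher in granulosa and 1 higher in cumulus, against 23.6% and 20.7% of all entries, with a median of -0.40. Without granulosa libraries 2 and 4 the counts were 11 and 0, and without libraries 1 and 3 they were 8 and 1. WARS, the tryptophan enzyme, was at 85.9, 98.7, 77.2 and 88.9 CPM in cumulus and at 231, 166, 209.5 and 166 in granulosa (-1.14 ± 0.13, adjusted p = 1.28e-04). SARS, for serine, read 98.0, 94.0, 90.0 and 87.2 CPM in cumulus and 174, 170.5, 187 and 154 in granulosa (-0.89 ± 0.09, adjusted p = 6.44e-05). TARS for threonine had -0.79 ± 0.09, adjusted p = 9.50e-05, EPRS for glutamate and proline had -0.67 ± 0.09, adjusted p = 2.37e-04, and AARS for alanine had -0.63 ± 0.10, adjusted p = 5.60e-04. These differences were near 1.5 to 2-fold, and the groups of these 5 did not overlap. DARS, for aspartate, was the one of the 18 higher in cumulus (0.37 ± 0.10, adjusted p = 0.0139). TARSL2 (TARS3), a paralog of TARS outside the list and named after its values were seen, was also called higher in cumulus, with a log2 fold change of 1.74. The call of NARS (-0.33 ± 0.10, adjusted p = 0.0281) was lost in several single-library omissions.

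Of 12 nuclear genes of mitochondrial assembly, 2 were higher in each type and 8 did not pass, near the 20.7% and 23.6% of all entries, with a median of 0.07. Each omission of 2 granulosa libraries left 1 in each direction. C7H19orf70, a MICOS subunit, had -0.61 ± 0.14, adjusted p = 0.00552, and MNF1, an assembly factor of complex III, had 0.64 ± 0.16, adjusted p = 0.00749. COX18, which inserts a subunit of cytochrome oxidase, had -0.77 ± 0.23, adjusted p = 0.0208, a call lost without cumulus library 2. Among selenium-dependent enzymes, GPX6, a glutathione peroxidase, was at 2.56, 2.02, 1.74 and 0.670 CPM in cumulus and at 36.7, 13.036, 21.6 and 9.54 in granulosa (-3.55 ± 0.52, adjusted p = 4.57e-04). SEPHS2, which makes the selenium donor of selenoproteins, was higher in cumulus (0.63 ± 0.10, adjusted p = 8.37e-04). SELENOW had -0.44 ± 0.12, adjusted p = 0.0169, lost without cumulus library 1 or 4. Of the 5 chaperone and folding genes, BAG5 had -0.80 ± 0.21, adjusted p = 0.00994, and HSPA6 had 1.01 ± 0.38, adjusted p = 0.0535. In that list 2 were higher in granulosa and 0 in cumulus, against 23.6% and 20.7% of all entries. The number higher in granulosa stayed 2 without granulosa libraries 2 and 4, and neither passed without libraries 1 and 3.

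Most zinc-finger factors, the largest list, were not called, and more of them were called toward cumulus than toward granulosa. Of 70 genes found by name 60 were tested, and 19 were higher in cumulus, 2 in granulosa and 39 did not pass, against 20.7% and 23.6% of all entries, with a median of 0.53. Without granulosa libraries 2 and 4 the counts were 20 and 3, and without libraries 1 and 3 they were 12 and 2. Many of these proteins pair a KRAB domain, which recruits a repressor complex, with arrays of DNA-binding fingers. ZNF585A was at 18.9, 13.3, 11.9 and 18.5 CPM in cumulus and at 1.44, 2.70, 4.39 and 7.14 in granulosa (1.99 ± 0.43, adjusted p = 0.00399). ZNF891 had 2.65 ± 0.53, adjusted p = 0.00254, ZNF696 had 1.03 ± 0.22, adjusted p = 0.00348 and LOC789258 (ZNF77) had 1.11 ± 0.22, adjusted p = 0.00228. The 2 higher in granulosa were ZNF804A (-0.69 ± 0.13, adjusted p = 0.00198) and ZNF81 (-1.07 ± 0.26, adjusted p = 0.00726). Of 6 chromatin and DNA repair genes, TDRD12, a piRNA pathway helicase (3.01 ± 0.82, adjusted p = 0.0131; 4.15 without granulosa library 3), and CAGE1 (1.06 ± 0.36, adjusted p = 0.0344) were higher in cumulus. The call of CAGE1 was lost in several single-library omissions. This list gave 2 higher in cumulus and 0 in granulosa, against 20.7% and 23.6% of all entries. The number higher in cumulus was 3 without granulosa libraries 2 and 4, and 1 without libraries 1 and 3.

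Replication-dependent histones are made in S phase without a poly(A) tail, and the labels name polyadenylated RNA as the molecule measured. Of 58 found by name 23 were tested, and 0 were higher in cumulus, 7 were higher in granulosa and 16 did not pass, against 20.7% and 23.6% of all entries, while the median was 0.09. The counts were 2 and 7 without granulosa libraries 2 and 4, 0 and 4 without libraries 1 and 3, and 3 and 5 on the contralateral side. On that side 47.6% of all entries were called in either direction. HIST1H2BB (H2BC15) was at 7.67, 10.9, 10.3 and 9.38 CPM in cumulus and at 46.9, 36.9, 59.3 and 15.962 in granulosa (-2.05 ± 0.35, adjusted p = 0.00108). LOC528329 (H4C13) had -1.84 ± 0.28, adjusted p = 5.68e-04, and HIST1H2AC (H2AC6) had -1.62 ± 0.28, adjusted p = 0.00115. Such genes share sequence with near-identical copies, and HIST2H2AA4 and HIST1H2AK had the same counts in every library, so reads of single members are uncertain. Of 11 replacement histones, made throughout the cell cycle, 1 was higher in cumulus and 2 in granulosa, against 20.7% and 23.6% of all entries. Their counts were 2 and 2 without granulosa libraries 2 and 4 and 0 and 3 without libraries 1 and 3. The replacement histone H2AFZ (H2AZ1) read 564, 799, 744 and 679 CPM in cumulus and 1209, 1121, 1282 and 1199 in granulosa (-0.79 ± 0.12, adjusted p = 5.05e-04). The macro-histone H2AFY2 (MACROH2A2) had -1.40 ± 0.19, adjusted p = 3.14e-04. H3F3A (0.46 ± 0.14, adjusted p = 0.0256) was the 1 higher in cumulus, and its call was lost without granulosa libraries 1 and 3 and in several single-library omissions.

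Enzymes that add nucleotides to RNA tails were called in both directions. FAM46A, given above, and its paralog FAM46B (TENT5B) were higher in granulosa, FAM46B at 0, 0.0918, 0.0671 and 0.366 CPM in cumulus and 4.39, 1.91, 2.58 and 1.18 in granulosa (-4.07 ± 0.80, adjusted p = 0.00231; -5.35 without cumulus library 4). ZCCHC6 (TUT7), a uridylyl transferase that marks RNA for decay, had -0.50 ± 0.10, adjusted p = 0.00262, and its paralog ZCCHC11 (TUT4) had 0.38 ± 0.13, adjusted p = 0.0331. The call of ZCCHC11 was lost in most single-library omissions. Of 14 genes of RNA processing in all, 2 were higher in cumulus and 4 in granulosa, near the 20.7% and 23.6% of all entries. The number higher in cumulus was 4 without granulosa libraries 2 and 4 and 0 without libraries 1 and 3, with 4 higher in granulosa in each.

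Of 21 imprinted genes and named long noncoding RNAs 8 were tested, with 4 higher in cumulus and 2 in granulosa, against 20.7% and 23.6% of all entries. Either omission of 2 granulosa libraries gave 4 and 1. DANCR, a long noncoding RNA, was at 31.5, 29.7, 32.1 and 36.6 CPM in cumulus and at 8.52, 11.983, 8.65 and 11.1 in granulosa (1.69 ± 0.17, adjusted p = 5.52e-05). The snoRNA host genes SNHG4 and SNHG3 had 1.87 ± 0.35, adjusted p = 0.00191 and 0.94 ± 0.23, adjusted p = 0.00862. XIST, the RNA of the inactive X chromosome, read 143, 126, 100.0 and 151.39 CPM in cumulus and 49.2, 75.1, 61.9 and 82.3 in granulosa (0.95 ± 0.18, adjusted p = 0.00191). H19, an imprinted noncoding RNA, had 183 counts over the granulosa libraries and 1 over the cumulus libraries, a ratio of 138 (95% exact counting interval 24.5 to 5478). SNURF had -0.31 ± 0.11, adjusted p = 0.0443, lost in several single-library omissions.

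MARCH proteins, ubiquitin ligases that remove membrane proteins, were 5 of 11 higher in granulosa and 2 higher in cumulus, against 23.6% and 20.7% of all entries, with a median of -0.42. MARCH3, which acts on endosomes, was at 6.39, 6.15, 4.56 and 2.80 CPM in cumulus and at 84.4, 39.8, 81.5 and 77.4 in granulosa (-3.84 ± 0.32, adjusted p = 1.84e-05). MARCH6, of the endoplasmic reticulum, was higher in cumulus, at 150.2, 132, 134 and 159 CPM against 85.9, 83.0, 66.0 and 109 (0.74 ± 0.15, adjusted p = 0.00262). MARCH8 went the same way (0.57 ± 0.14, adjusted p = 0.00781), and MARCH1 (-1.96 ± 0.43, adjusted p = 0.00449) and MARCH7 (-0.42 ± 0.10, adjusted p = 0.00739) were higher in granulosa with MARCH11 and MARCH5. The call of MARCH5 was lost in several single-library omissions. Without granulosa libraries 2 and 4, 4 were higher in granulosa and 3 in cumulus, and without libraries 1 and 3 the numbers were 4 and 2.

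Of 14 solute carriers tested, 4 were higher in each type, near the 20.7% and 23.6% of all entries. The counts were 4 and 4 without granulosa libraries 2 and 4, and 4 and 3 without libraries 1 and 3. PQLC3 (SLC66A3) was at 1.11, 0.826, 0.403 and 0.914 CPM in cumulus and at 16.8, 12.9, 18.6 and 12.4 in granulosa (-4.22 ± 0.33, adjusted p = 1.22e-05), and PQLC2 (SLC66A1), a lysosomal exporter of cationic amino acids, had -1.50 ± 0.17, adjusted p = 1.07e-04. SLC5A3, which takes up myo-inositol, was higher in cumulus, at 26.7, 32.2, 35.6 and 32.4 CPM against 7.99, 14.1, 9.10 and 14.7 in granulosa (1.47 ± 0.22, adjusted p = 5.84e-04). NHEDC1 (SLC9B1), a sodium-proton exchanger of sperm, had 4.34 ± 0.67, adjusted p = 6.23e-04 and 4.93 without granulosa library 4. The calls of SLC47A1 and SLC46A3 toward cumulus and of PQLC1 toward granulosa were each lost in several single-library omissions. Of 5 channels and pumps, 1 was higher in cumulus and 2 in granulosa, against 20.7% and 23.6% of all entries. The 2 were FXYD3 and PIEZO2. PIEZO2, which opens on stretch, read 0.681, 0.459, 1.68 and 0.366 CPM in cumulus and 25.8, 5.0038, 12.5 and 25.5 in granulosa (-4.40 ± 0.65, adjusted p = 5.25e-04; -5.09 without cumulus library 3). The 1 higher in cumulus was ANO7, of the anoctamin family, with 1.63 ± 0.32, adjusted p = 0.00262. Without granulosa libraries 2 and 4 the channels and pumps gave 2 and 2, and without libraries 1 and 3 again 1 and 2.

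Of 16 genes of G protein-coupled receptors and their partners found by name 4 were tested, and 2 were higher in each type, against 20.7% and 23.6% of all entries. They were SSTR1 and GPR142 in granulosa and FZD9 and LOC507696 (GPRASP2) in cumulus. These counts held without granulosa libraries 2 and 4, and were 1 and 2 without libraries 1 and 3. GPR142, a receptor for aromatic amino acids, was at 0.511, 1.19, 0.403 and 0 CPM in cumulus and at 8.25, 9.42, 6.0010 and 5.38 in granulosa (-3.84 ± 0.71, adjusted p = 0.00164; -4.60 without cumulus library 2). FZD9, a Wnt receptor, had 2.98 ± 0.88, adjusted p = 0.0197, which was lost without cumulus library 3 or 4 and was 4.41 without granulosa library 2. Among Groucho co-regulators of Wnt target genes, AES (TLE5) was higher in cumulus (1.61 ± 0.30, adjusted p = 0.00178) and TLE1 in granulosa (-1.13 ± 0.28, adjusted p = 0.00826). IRS1, which couples insulin and IGF receptors to PI3 kinase, had 33.5, 32.0, 37.3 and 31.8 CPM in cumulus and 67.6, 48.5, 72.0 and 62.0 in granulosa (-0.89 ± 0.14, adjusted p = 7.48e-04). Its paralog IRS2 had 0.01 ± 0.46, adjusted p = 0.994. Of 10 adhesion and axon guidance genes, EMB, IL1RAPL2 and DLGAP2 were higher in cumulus and SYN3 and PCDH9 in granulosa, 3 and 2 against 20.7% and 23.6% of all entries. They became 4 and 3 without granulosa libraries 2 and 4, and 3 and 1 without libraries 1 and 3. The source of the SYN3 reads is uncertain, as given above. The protocadherin PCDH9 had -1.58 ± 0.47, adjusted p = 0.0199, lost without cumulus library 4 or granulosa library 4.

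Of 27 immune genes found by name 6 passed the filter, and of these 4 were higher in granulosa and 0 in cumulus, against 23.6% and 20.7% of all entries, with a median of -1.50. LYG1, given above, and LYG2 (-2.70 ± 0.58, adjusted p = 0.00400) are goose-type lysozymes. TNFRSF17 (entry LOC101908051), a B-cell receptor of the TNF family, had -0.91 ± 0.21, adjusted p = 0.00597, but overlaps GSPT1. TNFRSF8, which encodes CD30, had -2.09 ± 0.65, adjusted p = 0.0245, a call lost without cumulus library 1 or granulosa library 2. The count was 4 without granulosa libraries 1 and 3, and 3 with 1 higher in cumulus without libraries 2 and 4. The platelet gene PF4 was at 0.452 to 1.38 CPM in granulosa and at 0 in cumulus, and its part in these calls was not tested. MUCL3, the 1 mucin that passed, was at 0, 1.19, 0 and 0.0609 CPM in cumulus and at 3.73, 11.9, 11.1 and 6.74 in granulosa (-4.86 ± 1.0043, adjusted p = 0.00356; -8.08 without cumulus library 2). The call of MUCL3 held without granulosa libraries 1 and 3, the 2 libraries with MUC16.

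**Figure D4:**
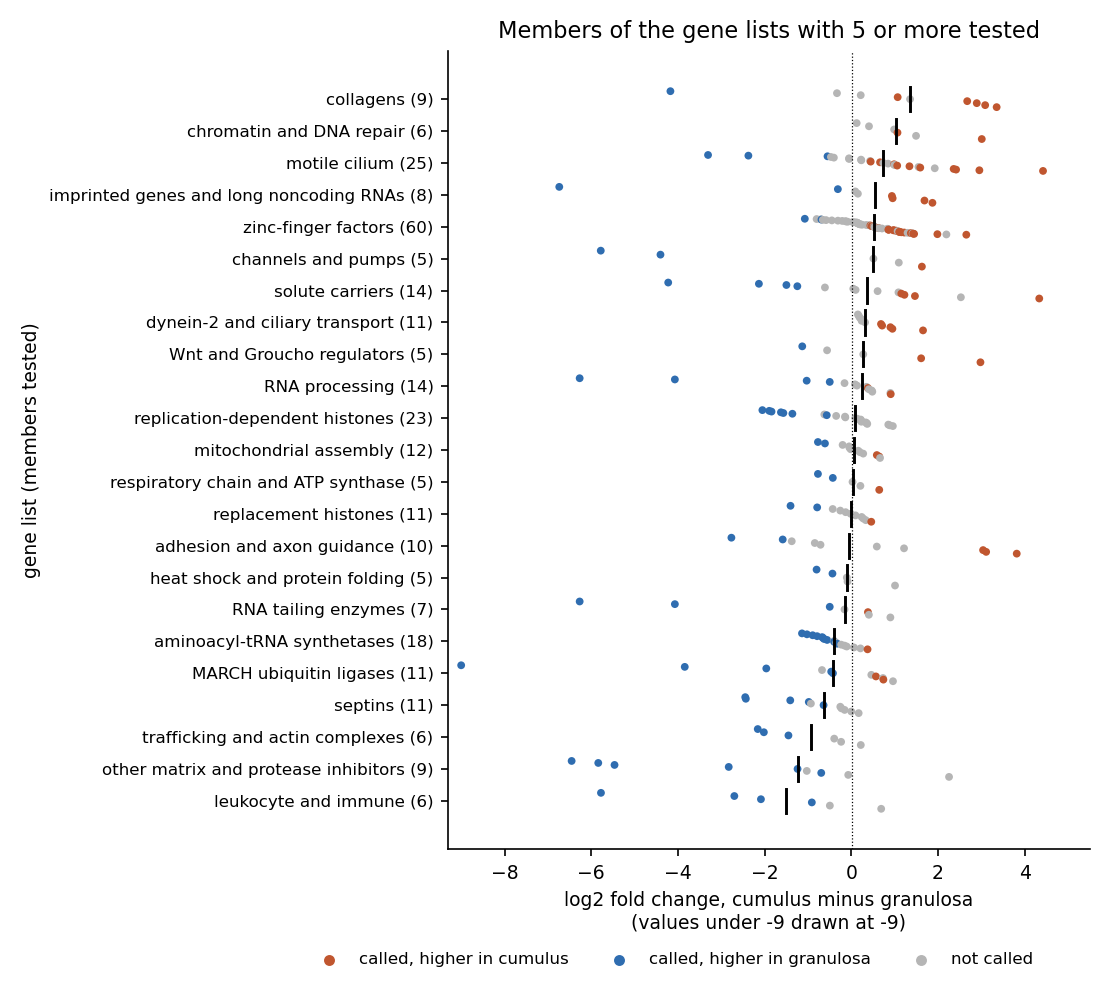
Log2 fold change (cumulus minus granulosa) of each tested member of the lists with at least 5 tested, one point per gene, coloured by call, with a black bar at the median of the list and values under -9 drawn at -9. Medians run from 1.36 for the collagens at the top to -1.50 for the immune genes at the bottom, and most lists hold points on both sides of 0.

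Most differences belong to entries that could not be named. The 14157 tested entries with only an Ensembl ID gave 2879 calls higher in cumulus and 3492 higher in granulosa. Of 704 tested LOC entries that RefSeq lists as long noncoding RNA, 158 were higher in cumulus and 125 in granulosa, and of 369 LOC entries listed as protein coding, 93 and 53. These LOC counts include entries that RefSeq names. The smallest p values among unnamed entries were those of ENSBTAG00000002025 (-3.30 ± 0.14, adjusted p = 3.86e-06) and ENSBTAG00000004553 (-2.58 ± 0.12, adjusted p = 3.86e-06), higher in granulosa. Toward cumulus they were those of ENSBTAG00000033153 (3.27 ± 0.20, adjusted p = 4.77e-06) and ENSBTAG00000015182 (3.01 ± 0.19, adjusted p = 6.01e-06). At 1 CPM or more in all 4 libraries of one type and 0 counts in all 4 of the other were 4 entries for cumulus and 23 for granulosa, of which MARCH11 alone has a name.

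The contralateral ovary gave the same comparison in 8 other pools, with 8048 of 16897 entries called (47.6%). Of 16205 entries tested on both sides, 5778 were called on both, which is 80.1% of the ipsilateral and 73.4% of the contralateral calls, and all 5778 had the same direction. All 36 genes plotted by library were called there too, in the same direction. HYDIN had 3.81 on the contralateral side, ECRG4 3.54, EMB 3.48, TIMP1 -5.10, A2M -5.82 and LYG1 -7.06. In numbers higher in cumulus and in granulosa, the collagens gave 5 and 1 on that side, the septins 1 and 6, the aminoacyl-tRNA synthetases 2 and 12, and the zinc-finger factors 15 and 4. The motile cilium list gave 6 and 3 there. Other splits did not repeat. The MARCH proteins gave 2 and 5 on the ipsilateral and 3 and 3 on the contralateral side, and the mitochondrial assembly genes 2 and 2, then 0 and 4. These contralateral counts stand against 47.6% of all entries called in either direction, and no share by direction was taken on that side.

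A difference of the cell type effect between the ovaries was called for 0 of 18038 entries (0.0%) by edgeR's test over all 16 libraries, where no adjusted p fell below 0.653. Before adjustment, 1358 entries (7.53%) had a p under 0.05, and of these 550 had the larger and 808 the smaller value on the ipsilateral side. DESeq2's Wald test called 1 entry, ENSBTAG00000001135, with a log2 difference of 22.4 ± 3.98 between the sides (adjusted p = 0.000516). A fitted value of that size is not a usable fold change, and edgeR did not call the entry. Of the named genes, MXRA5 had the values most apart by p, -5.84 on the ipsilateral and -2.63 on the contralateral side. CASC4 had 0.22 and 0.83, HSPA6 1.01 and 2.76, TTC25 0.85 and -1.36, MUM1 0.12 and 0.67, and SMKR1 -0.40 and 0.98, each with an adjusted p of 0.653 for the difference. Of the ipsilateral calls, 125 had the opposite sign contralaterally, and 10 of these have a name. They include CARS, -1.02 and 0.18, FAM46B, -4.07 and 1.84, and G0S2, a lipolysis inhibitor, -2.77 and 0.34. None of the 10 passed the test of the difference.

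**Figure D5:**
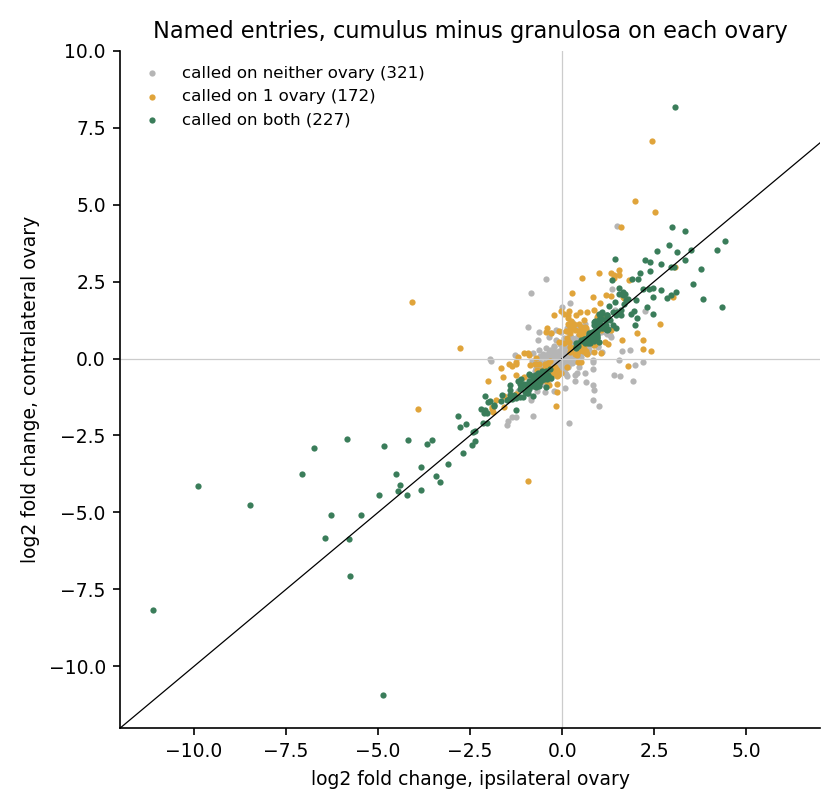
Log2 fold change (cumulus minus granulosa) of the 720 named entries tested in both ovaries, contralateral against ipsilateral, coloured by the calls. The 227 called on both sides lie in the quadrants of equal sign, 172 were called on 1 side and 321 on neither.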

How the data were processed

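Per the labels' protocols, RNA was purified on columns, treated with DNase and made into cDNA (SMART-Seq HT kit). Nextera XT libraries were read as 75 bp single ends, and neither kit marks strand. The tools in the submitters' processing notes are FastQC, Trimmomatic, STAR and DESeq2, with no versions. The counter, annotation and build were not given in the sources used here. A table deposited by the authors gives raw, unnormalized read counts per entry, 1 column per library, matched by title. It has 36824 entries, of which 27607 carry an Ensembl ID, 7848 a LOC number and 1369 a symbol. Names of LOC entries and overlaps of genes come from the RefSeq genes of ARS-UCD2.0, and 2474 entries have a name. Columns of other samples numbered 0.

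The 8 ipsilateral libraries were tested with edgeR 4.0.16 (limma 3.58.1, R 4.3.3): filterByExpr (minimum count 10, minimum total 15), TMM factors, robust quasi-likelihood F-test. The SE was taken as the size of the log2 fold change over the root of F. The difference between ovaries was tested in all 16 libraries with 4 group means. Single values were compared by exact permutation in scipy 1.17.1. Alternatives used DESeq2 1.42.0, limma-voom, other scaling and filters, and omitted libraries. The scripts were tested on counts simulated with the levels, depths and spread of these libraries. That test recovered 2 of 67 entries changed 1.5-fold, 28 of 67 changed 2-fold and 58 of 66 changed 4-fold. An entry that did not pass may therefore still differ by 1.5 to 2-fold. Intervals and limits of 0 counts cover counting error only, since PCR copies are not independent molecules.

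Named genes were the 12 most abundant per direction among named entries called, at least 2-fold apart and without overlap between the groups; the 10 largest differences per direction among those at 5 CPM or more; the 6 smallest p values for the difference between ovaries; up to 4 called members of each list; 2 unnamed entries per direction; and the 4 smallest differences at 100 CPM or more. Some genes this rule selects are not reported here. Further list members were named after their values were seen. Members and lists were chosen with earlier results of these data known, 7 lists were added after the names in the table were seen, and 28 names were removed from lists because their known role is another. Of 126 named genes, 31 differ by at most 2% or 2 counts from some Ensembl entry in all libraries, and 52 of 110 placed genes overlap another gene, so their reads are uncertain.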

Additional observations from a re-analysis of the deposited data

Results flagged for a closer look

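Single libraries that stood apart from the other 3 of their type, by Dixon's test for 4 values, were found in 17 of 256 groups of values (6.64%), where chance marks about 1 in 20. In granulosa, library 2 was high in FBXW12 at 92.6 CPM (others 40.6 to 48.1) and in COLQ at 2.30 CPM (others 0.839 to 1.05), and low in MARCH3 at 39.8 CPM (others 77.4 to 84.4). Granulosa library 1 was high in SSTR1 at 69.961 CPM (others 14.3 to 23.0) and in CASC4 at 181 CPM (others 143 to 146). The same library was low in ZCCHC6 at 80.9 CPM (others 92.1 to 93.3) and in the unnamed entry ENSBTAG00000015182 at 3.60 CPM (others 5.07 to 5.36). Granulosa library 3 was high in TNIK at 691 CPM (others 604 to 609) and low in H2AFY2 at 35.2 CPM (others 59.6 to 63.8). In cumulus, library 2 was high in A2M at 16.8 CPM (others 1.16 to 1.70), SSTR1 at 0.643 CPM (others 0.0852 to 0.134) and MUCL3 at 1.19 CPM (others 0 to 0.0609). It was low in L3MBTL4 at 2.755 CPM (others 6.76 to 7.58) and BAG5 at 5.88 CPM (others 8.89 to 9.20). Cumulus library 3 was high in AES at 18.7 CPM (others 12.4 to 13.3) and in H19 at 0.0671 CPM, which is 1 count against 0. Granulosa library 4 had the most reads, 21.9 M in total.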

How the results depend on the processing

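The number of calls was 8517 with DESeq2, 7337 with DESeq2's size factors, 7288 with library totals alone, 7589 with limma-voom, 7208 without the filter on low counts, 7121 with a filter of 1 CPM in 4 libraries, 8205 with all 16 libraries in the fit and 7285 with exact repeats kept once, against 7319. Leaving out 1 library gave 6323 to 7670 calls, 2837 to 3629 higher in cumulus and 3473 to 4041 in granulosa, with 1735 to 2350 and 2070 to 2443 at 2-fold or more. Tested against a 2-fold difference (glmTreat), 746 entries were higher in cumulus and 1372 in granulosa, fewer than those called with a fitted 2-fold difference because the null is then 2-fold. The omissions of granulosa libraries 2 and 4, with 8173 calls, and of libraries 1 and 3, with 6033, were chosen after seeing the data. Differences of 8-fold or more numbered 527 and 1277 with DESeq2, 520 and 784 with limma-voom and 501 and 1165 without the filter. Library totals moved the median of all entries by 0.0747 and the share of calls higher in cumulus from 46.7% to 52.3%. For the difference between ovaries, DESeq2 called 1 entry, and each omission of 1 library left 0 calls with smallest adjusted p values of 0.323 to 0.883. The difference in total counts ran from -5.22 to -2.81 M over the single omissions (exact permutation p 0.0571 to 0.171) and that in entries at 1 CPM from -182 to -29.9 (p 0.0571 to 0.743). With 1 library left out, 0.0571 is the smallest p this test allows. No paired analysis was possible because the labels give no replicate numbers shared between groups. Over the alternatives, 2185 values of the 126 named genes kept their side of the threshold. Another 62 values of 13 genes were no longer called, and 6 values of 3 genes became called. Some uncalled genes with small differences changed sign, such as ATP5MPL, with 0.03 in the main fit and -0.09 without granulosa library 1. Of 142 called list members, 32 lost the call when some 1 library was left out. Depth limits the low entries most, with a median SE of 0.713 under 1 CPM and 0.120 between 100 and 1000 CPM.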
